A study of Mus musculus with 35 samples.

Results

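The genes described here are 6 collagen chains, Col1a1, Col1a2, Col3a1, Col4a1, Col4a2 and Col6a1, the collagen chaperone Serpinh1, and 3 extracellular matrix proteins that bind collagen, Sparc, Lum and Dcn. They were taken by name from the deposited table of liver arrays, as the probe sets whose platform annotation names exactly 1 gene and that gene is one of these. That gave 14 probe sets for 10 of the 17097 genes in the table. Where a gene had several, its probe set was chosen by the highest mean over all 35 arrays, so that mean is given only as a description. Col3a1, Col4a1, Serpinh1 and Sparc had a second probe set each, which is described beside the first.

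The livers came from adult male wild type C57Bl/6 mice, an inbred laboratory strain bought from a commercial breeder, with no transgene or other treatment. Each mouse breathed either air or styrene vapour, the monomer of polystyrene, in a single 6-hour session and was killed on the following morning. Beside the air group there were 6 styrene groups, exposed to 1, 5, 10, 20, 40 or 120 ppm, and each of the 7 groups had 5 mice with 1 array per mouse. The labels call the mice biological replicates, so the spread within a group includes differences between animals. Serial numbers in the sample titles run with concentration, from 1 to 8 in air up to 49 to 56 at 120 ppm, so whatever that order stands for cannot be told apart from concentration. The design addresses which liver transcripts differ after a single exposure, and at which concentration.

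Collagens are the main structural proteins of the extracellular matrix. Fibrillar collagens, types I and III, make the fibres of the portal tracts and of scar tissue, type IV collagen makes the meshwork of basement membranes, and type VI makes fine beaded filaments. In the liver, hepatic stellate cells, portal fibroblasts and endothelial cells are the usual producers, and hepatocytes make little. Newly made collagen folds in the endoplasmic reticulum, where Serpinh1 (also called Hsp47), a chaperone dedicated to collagen and itself a heat shock gene, holds the triple helix until it leaves for the Golgi. Sparc is a secreted protein that binds collagen and helps deposit it, and lumican (Lum) and decorin (Dcn) are small leucine-rich proteoglycans that coat collagen fibrils and set their width. The arrays read RNA from whole pieces of liver, in which fewer cells of a type and less RNA per cell cannot be told apart.

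Serpinh1, Col4a1, Col3a1 and Sparc were lower after 40 and 120 ppm styrene, by 1.66-fold to 3.06-fold against air in the brighter probe set of each. The second Col4a1 probe set was lower by 1.25-fold at both concentrations, and the second Col3a1 probe set, which is dim, was not called. Col1a1, Col1a2, Col4a2, Col6a1, Lum and Dcn did not pass the main test at any concentration. Under some alternative settings Col1a2 and Col4a2 passed at 40 ppm, and Lum at 120 ppm. Serpinh1 and Col4a1 were already called lower at 20 ppm, and both of these calls were lost under some alternative settings. At 1, 5 and 10 ppm none of the 10 genes was called. The 4 genes are on different chromosomes (7, 8, 1 and 11 in the RefSeq annotation of the mouse assembly GRCm38.p6). The 250 bases before the annotated transcript start of Serpinh1, Col3a1 and Sparc are shown because these 3 genes also varied together from mouse to mouse within groups, as described further on. They were taken from RefSeq (GRCm38.p6), which matched 7 of the 10 genes here, and are written 5′ to 3′ on the gene's own strand, with capitals marking a match to a searched motif.
Serpinh1: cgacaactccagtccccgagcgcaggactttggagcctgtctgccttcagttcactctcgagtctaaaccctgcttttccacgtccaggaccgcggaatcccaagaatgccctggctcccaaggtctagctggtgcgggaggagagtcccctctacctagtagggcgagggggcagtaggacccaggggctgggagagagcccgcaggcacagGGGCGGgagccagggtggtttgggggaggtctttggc
Col3a1: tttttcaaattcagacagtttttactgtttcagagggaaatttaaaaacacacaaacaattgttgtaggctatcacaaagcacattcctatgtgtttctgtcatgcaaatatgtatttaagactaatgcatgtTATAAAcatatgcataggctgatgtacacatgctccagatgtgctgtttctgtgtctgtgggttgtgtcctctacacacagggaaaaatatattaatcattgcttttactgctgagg
Sparc: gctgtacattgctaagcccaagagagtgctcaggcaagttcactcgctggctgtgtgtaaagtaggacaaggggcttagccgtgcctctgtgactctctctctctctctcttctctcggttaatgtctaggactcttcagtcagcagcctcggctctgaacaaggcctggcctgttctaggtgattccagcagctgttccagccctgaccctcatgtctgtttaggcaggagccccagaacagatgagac
The Serpinh1 stretch is chr7:99353240-99353489 on the minus strand, the Col3a1 stretch is chr1:45311288-45311537 on the plus strand, and the Sparc stretch is chr11:55420081-55420330 on the minus strand. Searched on both strands were the heat shock element written as GAANNTTC or as TTCNNGAA, the TATA box TATAAA, the CCAAT box CCAAT, the GC box GGGCGG and the E-box CACGTG, none of which overlapped another match here. The Serpinh1 stretch held 1 GC box, which begins 37 bases before the start, and 32.7% of 32851 RefSeq promoter stretches of the same length hold one. In the Col3a1 stretch there was 1 TATAAA, beginning 117 bases before the start, against 12.4% of all stretches. None of the searched motifs was found in the Sparc stretch. Neither spelling of the heat shock element was in any of these 3 stretches, and 6.69% and 7.17% of all stretches hold the first and the second spelling. These are matches of letters in a short window, and the data do not bear on whether a factor binds there.

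On the deposited log2 scale, the probe sets ranged from 1.74 to 14.23 and the median probe set had a mean of 3.52. The brightest of the 10 genes was Dcn, at a mean of 9.48 over all arrays, which was above 95.6% of probe sets. Sparc had a mean of 8.28, Col3a1 7.32, Col4a2 7.05, Col4a1 6.76, Serpinh1 6.63, Lum 5.35 and Col6a1 5.25 (values on the log2 scale, which depend on the probes and do not rank the genes by RNA amount). Col1a1 and Col1a2, the chains of type I collagen, were dim at 3.20 and 2.97. Both lie under the median probe set, so a change of their transcripts could be understated or missed. The label of a collagen group therefore rests mainly on type III, IV and VI chains in these arrays. As for the tissue, the 12 hepatocyte markers measured had a mean log2 value between 12.63 and 12.79 on every array.

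**Figure D1:**
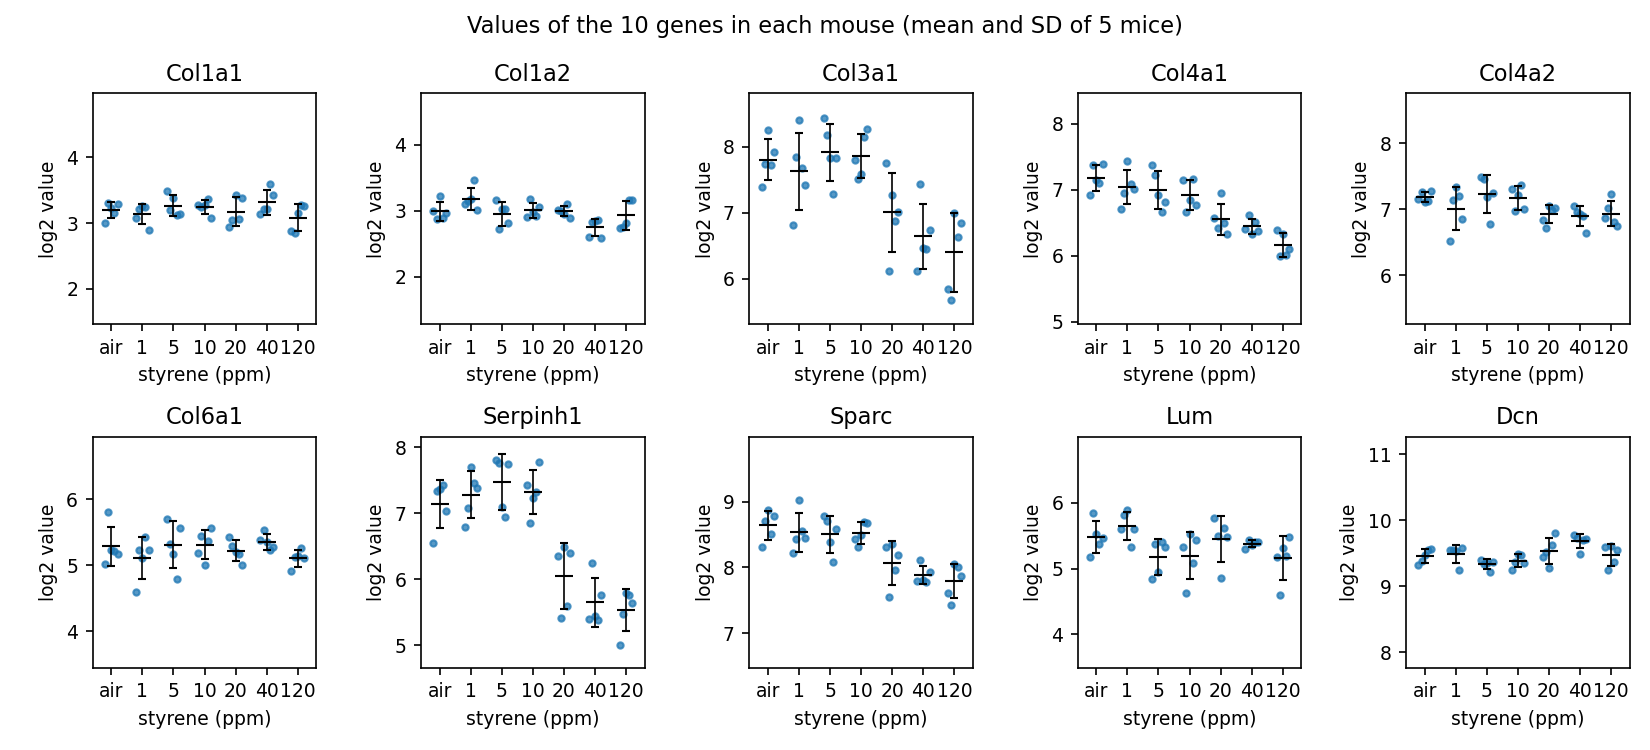
Values of the 10 genes in each of the 35 mice. The x axis gives the styrene concentration in ppm as evenly spaced categories, the y axis the deposited log2 value over a span of 3.5 in every panel, each point is 1 mouse, and the dash and bar are the mean and SD of 5 mice. Serpinh1 steps down between 10 and 20 ppm. Decreases against air are called from 20 ppm for Serpinh1 and Col4a1, and from 40 ppm for Col3a1 and Sparc. The means of Col3a1 and Sparc are also lower at 20 ppm, at 7.00 against 7.80 in air and 8.07 against 8.64, without a call. Dcn stays between 9.21 and 9.81.

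Among the array measures, the median value of an array was 3.503 ± 0.019 (SD, n = 5) in air. It was higher in the 40 ppm group, at 3.572 ± 0.021, and in the 120 ppm group, at 3.598 ± 0.027 (exact permutation p = 0.00794 for each, two-sided, the smallest that 5 against 5 allows, adjusted p = 0.019 over 12 tests). The actin control, whose 3′ minus 5′ difference reads how intact and how fully labelled the RNA was, gave 0.478 ± 0.047 in air and 0.581 in the 10 ppm group (adjusted p = 0.0476, exact permutation test). The groups of 20, 40 and 120 ppm had 0.724, 0.706 and 0.717 (adjusted p = 0.019 for each, exact permutation test). The array median differed in the 2 groups with 4 collagen-related genes lower and not at 20 ppm (3.530, exact permutation adjusted p = 0.159). The actin difference was higher at 10 ppm, where none of the 10 genes was called. From 10 to 20 ppm it went from 0.581 to 0.724, and the mean of Serpinh1 went from 7.32 to 6.04 over the same step. Between mice of one group, the actin difference correlated with Col3a1 at r = -0.48 (rho = -0.44, r = -0.52 without 2 mice) and with Sparc at r = -0.45 (rho = -0.47, r = -0.48 without 2 mice), and neither passed (permutation adjusted p = 0.133 and 0.206 for r, 0.208 and 0.191 for rho, over 90 tests). The part of these measures in the differences between groups was not tested. Centring each array on its median kept every call of the 10 genes against air at 20, 40 and 120 ppm, read from the brighter probe set of each. It also added calls of Sparc at 20 ppm and of Col1a2 and Col4a2 at 40 ppm.

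Serpinh1 showed the clearest pattern. In air the 5 mice had log2 values of 6.55, 7.34, 7.37, 7.42 and 7.04. At 10 ppm they had 7.43, 6.86, 7.22, 7.32 and 7.77, and at 1 and 5 ppm the values lay between 6.78 and 7.81. At 20 ppm they were 6.35, 5.41, 6.48, 5.59 and 6.39. All 5 mice of this group lay below every mouse of the 4 lower concentrations, whose lowest value was the 6.55 of an air mouse. At 40 ppm the values were 5.40, 6.25, 5.45, 5.38 and 5.77, and at 120 ppm 5.00, 5.47, 5.79, 5.76 and 5.64. In this brighter probe set, the 15 mice of 20 to 120 ppm thus did not overlap with the 20 mice of 0 to 10 ppm. In the second probe set 14 of the 15 lay below all 20, and the ranges overlapped (highest 6.15 against lowest 5.96). How many of all probe sets split the mice in this way was not counted.

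Against air, Serpinh1 fell by 1.10 ± 0.23 on the log2 scale (SE) at 20 ppm, a 2.14-fold decrease (limma, adjusted p = 0.0144). The decrease was 2.82-fold at 40 ppm (log2 change -1.49, adjusted p = 7.22e-05) and 3.06-fold at 120 ppm (-1.61, adjusted p = 2.08e-05). The step from 10 to 20 ppm alone was -1.28 (2.42-fold, limma adjusted p = 0.0159), whereas 40 against 20 ppm gave -0.39 (adjusted p = 0.454) and 120 against 40 ppm -0.12 (adjusted p = 1) and did not pass. The call at 20 ppm was lost in some settings, while the change stayed between -1.25 and -0.94 when any single mouse was left out. Without replicate 2 or replicate 4 of the 20 ppm group the adjusted p was 0.0867 or 0.0666 (limma), and with only the 2 groups in the fit it was 0.118. The step from 10 to 20 ppm was likewise not called without replicate 5 of 10 ppm (adjusted p = 0.0689), replicate 2 of 20 ppm (0.111) or replicate 4 of 20 ppm (0.0902), all from limma.

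A second probe set for Serpinh1 gave a similar course at a mean level of 6.04. In air it averaged 6.53 ± 0.37 (SD, n = 5), and it averaged 6.55 ± 0.33 in the 10 ppm group. The groups of 20, 40 and 120 ppm had means of 5.40 ± 0.73, 5.45 ± 0.17 and 4.92 ± 0.34. The changes against air were -1.13, -1.08 and -1.60 at 20, 40 and 120 ppm (limma, adjusted p = 0.0184, 0.0034 and 5.63e-05). On the same arrays the 2 probe sets differed in their change only at 40 ppm among these 3 concentrations, by -0.42 (exact permutation p = 0.0317, adjusted p = 0.0476 over 18 such tests). The brighter probe set carries the suffix x, which marks a design whose probes may also match other transcripts, and the second does not.

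The 2 type IV chains, Col4a1 and Col4a2, are made from neighbouring genes on chromosome 8 that point away from each other, with annotated starts 21 bases apart, and their proteins assemble into 1 trimer of basement membranes. Col4a1 had log2 values of 6.92, 7.37, 7.15, 7.10 and 7.39 in air and of 6.58, 6.42, 6.95, 6.50 and 6.33 at 20 ppm. At 40 ppm the values were 6.40, 6.61, 6.34, 6.52 and 6.38, and at 120 ppm 6.39, 5.99, 6.33, 6.02 and 6.10. The 10 mice of 40 and 120 ppm lay below all 20 mice of 0 to 10 ppm, whose lowest value was 6.66, and 1 mouse of 20 ppm overlapped with air. Against air Col4a1 fell by 0.63 ± 0.14 on the log2 scale (SE) at 20 ppm (1.55-fold, limma adjusted p = 0.0177), by 0.74 at 40 ppm (1.66-fold, adjusted p = 0.000542) and by 1.02 at 120 ppm (2.03-fold, adjusted p = 1.14e-05). At 20 ppm the call was lost without replicate 2 of air (adjusted p = 0.0542), replicate 2 (0.0867), 4 (0.0617) or 5 (0.0619) of 20 ppm, or with only those groups in the fit (0.118).

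The second Col4a1 probe set moved less. It averaged 6.63 ± 0.25 (SD, n = 5) in air, and 6.24 ± 0.23, 6.31 ± 0.06 and 6.31 ± 0.17 in the groups of 20, 40 and 120 ppm. The changes were -0.39 at 20 ppm (limma, adjusted p = 0.0728, not passed), -0.32 at 40 ppm (adjusted p = 0.0434) and -0.32 at 120 ppm (adjusted p = 0.0354). Within arrays, the change of the brighter probe set was more negative than that of the second by 0.42 at 40 ppm and by 0.70 at 120 ppm (both exact permutation p = 0.00794, adjusted p = 0.0179), and the groups did not overlap in that difference. So the 2 probe sets share a direction at these concentrations, and the size of the Col4a1 decrease depends on which of them is read. The mean of both fell by 0.53 on the log2 scale at 40 ppm and by 0.67 at 120 ppm, and both passed (limma, adjusted p = 0.00103 and 6.83e-05).

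Col4a2 had log2 values of 7.16, 7.26, 7.11, 7.12 and 7.28 in air. The 20 ppm mice had 6.84, 6.72, 7.04, 6.99 and 7.03, and the 40 ppm mice 7.05, 6.95, 6.92, 6.89 and 6.64. At 120 ppm the values were 6.87, 7.01, 7.22, 6.81 and 6.75. The 20 and 40 ppm groups lay wholly below the air group, which was narrow, but mice at 1 to 10 ppm ranged from 6.52 to 7.49 and covered all of them. The changes against air were -0.26, -0.30 and -0.25 (limma, adjusted p = 0.411, 0.12 and 0.162) and were not called. The change at 40 ppm passed with arrays centred on their median (-0.37, limma adjusted p = 0.0494). It also passed with only the groups compared in the fit (-0.30, limma adjusted p = 0.0335). At 120 ppm the 95% interval was -0.52 to 0.01. The change of Col4a1 exceeded that of Col4a2 within arrays by -0.37, -0.44 and -0.77 at 20, 40 and 120 ppm (exact permutation adjusted p = 0.0317, 0.0179 and 0.0179), when Col4a1 was read from its brighter probe set. Read from the second, the differences were -0.12, -0.02 and -0.06 (exact permutation adjusted p = 0.571, 0.933 and 0.705).

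**Figure D2:**
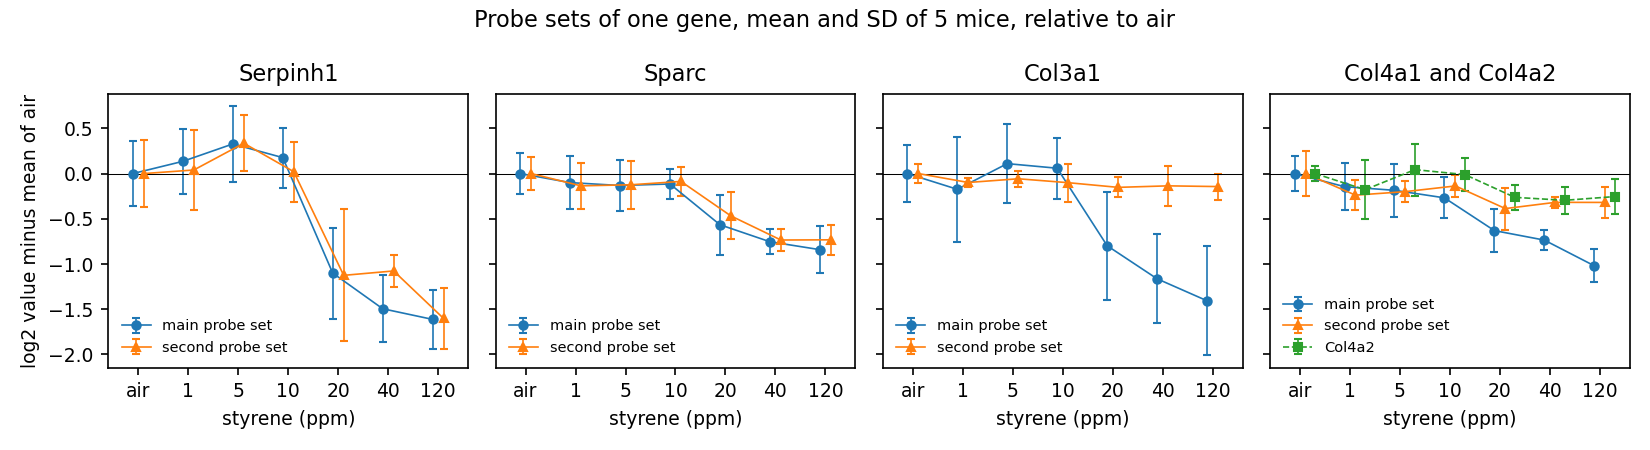
Mean and SD of 5 mice for each probe set of Serpinh1, Sparc, Col3a1 and Col4a1, and for Col4a2, as the log2 value minus the mean of air on the y axis, against styrene in ppm as evenly spaced categories on the x axis. The 2 probe sets of Serpinh1 and of Sparc follow each other, the second Col3a1 probe set is dim and nearly flat, and the second Col4a1 probe set runs with Col4a2, at -0.32 against -0.25 at 120 ppm.

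Of the fibrillar chains, Col3a1, the single chain of type III collagen, was the one read well above the median probe set. Its log2 values in air were 7.39, 7.74, 8.25, 7.72 and 7.91, and at 10 ppm 7.80, 7.51, 7.58, 8.15 and 8.26. At 20 ppm they were 7.75, 6.12, 7.27, 6.86 and 7.01. At 40 ppm they were 6.11, 7.43, 6.47, 6.45 and 6.74, and at 120 ppm 5.83, 5.67, 6.99, 6.64 and 6.84. One mouse each of 20 and 40 ppm overlapped with air, and the 120 ppm group lay wholly below it. The spread was wide, with an SD of 0.60 at 120 ppm against 0.31 in air. Col3a1 fell 2.24-fold at 40 ppm (log2 change -1.16, limma adjusted p = 0.00668) and 2.65-fold at 120 ppm (-1.41, adjusted p = 0.00114), and its change of -0.80 ± 0.29 (SE) at 20 ppm did not pass (adjusted p = 0.205).

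The second Col3a1 probe set was dim, at a mean of 2.93, and gave -0.14 at 120 ppm (limma, adjusted p = 0.289). Averaging it with the first brought the Col3a1 change to -0.65 at 40 ppm and -0.77 at 120 ppm, both still called (limma, adjusted p = 0.00694 and 0.00134). The type I chains were dim in every group. Col1a1 had group means from 3.08 to 3.31 and changes of -0.02, 0.12 and -0.11 at 20, 40 and 120 ppm (limma, adjusted p = 0.971, 0.492 and 0.483). Col1a2 had group means from 2.75 to 3.18, and its change at 40 ppm was -0.24 (limma, adjusted p = 0.0967, 95% interval -0.45 to -0.04). All 5 mice lay below air, but 3 of them within the range of 0 to 10 ppm. That change passed with arrays centred on their median (-0.31, limma adjusted p = 0.0327) and with array weights (-0.24, limma adjusted p = 0.0486). At 120 ppm Col1a2 was at -0.06 (adjusted p = 0.709). Col6a1, of type VI collagen, lay between 4.59 and 5.80 in all mice, with changes of -0.07, 0.07 and -0.18 (limma, adjusted p = 0.924, 0.804 and 0.419).

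Sparc followed Col3a1 at a smaller scale. Its log2 values were 8.32, 8.71, 8.87, 8.50 and 8.78 in air and 8.32, 7.55, 8.35, 7.95 and 8.18 at 20 ppm. At 40 ppm they were 7.79, 8.11, 7.81, 7.78 and 7.93, and at 120 ppm they ran from 7.44 to 8.05 with a median of 7.87. Neither the 40 nor the 120 ppm group overlapped with air, and 3 of 5 mice at 20 ppm lay below it. Sparc fell by 0.75 ± 0.15 on the log2 scale (SE) at 40 ppm (1.69-fold, limma adjusted p = 0.00123) and by 0.84 at 120 ppm (1.79-fold, adjusted p = 0.000334). The change of -0.57 at 20 ppm missed the threshold (adjusted p = 0.059). It passed in 4 of 8 alternative settings, among them each array centred on its median (-0.59, limma adjusted p = 0.0417). It also passed in 3 of 10 fits that left out 1 mouse. The second Sparc probe set gave -0.47, -0.73 and -0.73 at the 3 concentrations (limma, adjusted p = 0.0686, 0.000318 and 0.000265).

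The proteoglycans Dcn and Lum were not called at any concentration in the main test. Dcn, read at the highest level of the 10 genes, had 9.33, 9.38, 9.47, 9.55 and 9.57 in air and 9.77, 9.73, 9.49, 9.70 and 9.71 at 40 ppm. At 120 ppm its values were 9.59, 9.24, 9.61, 9.37 and 9.55, across the whole range of air. The changes against air in the groups of 20, 40 and 120 ppm were 0.08, 0.22 and 0.01 (limma, adjusted p = 0.814, 0.0843 and 0.936), and the 95% interval at 120 ppm was -0.17 to 0.19. Within arrays, the change of Col3a1 minus that of Dcn was -0.87, -1.39 and -1.42 in these groups, as differences of log2 changes (exact permutation adjusted p = 0.0476, 0.0179 and 0.0179). For Sparc against Dcn the same differences were -0.64, -0.98 and -0.85 (exact permutation adjusted p = 0.0476, 0.0179 and 0.0179). Lum ranged from 4.60 to 5.89 over all mice, with group means of 5.48 ± 0.24 (SD, n = 5) in air and 5.15 ± 0.33 at 120 ppm. Its change at 120 ppm was -0.32 (limma, adjusted p = 0.172, 95% interval -0.66 to 0.02). After a second quantile normalization the Lum change was -0.49 and passed (limma, adjusted p = 0.0218).

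**Figure D3:**
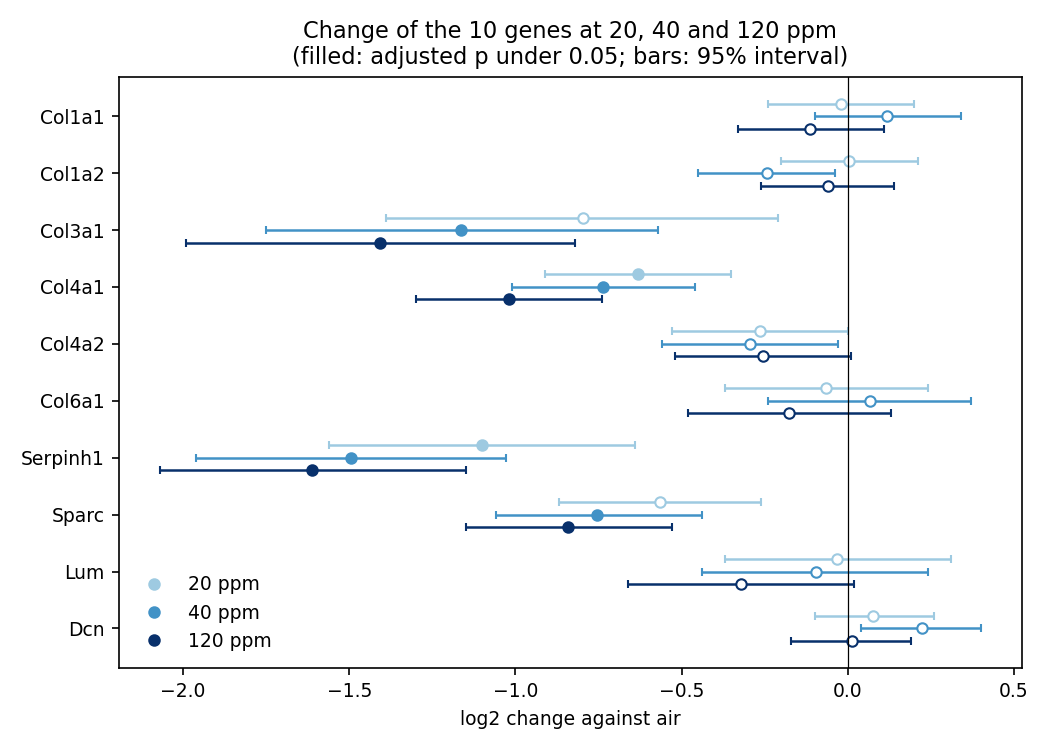
Log2 change of each of the 10 genes against air on the x axis, at 20, 40 and 120 ppm, with the 95% interval of the fit as a bar and genes on the y axis. Filled points have an adjusted p under 0.05 in limma, which are Serpinh1 and Col4a1 at 20 ppm, and these with Col3a1 and Sparc at 40 and 120 ppm.

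The 10 genes were chosen with the differences of Serpinh1 and Col3a1 in these data known, so counts over them are a description only. Counted over the 10 genes, 2 were called lower at 20 ppm, where 0.619% of all 45037 probe sets tested were called lower and 1.03% were called in either direction. At 40 ppm 4 were lower, with 4.89% of all probe sets lower and 14.6% called. At 120 ppm 4 were lower, against 6.4% lower and 19.4% called, and at none of these concentrations was a member called higher. The median log2 change of the 10 genes was -0.16, -0.27 and -0.29 at 20, 40 and 120 ppm, beside 0.01, 0.04 and 0.06 over all probe sets. Groups that did not overlap with air, lying below it, were found for 2 genes at 20 ppm (0.946% of all probe sets), 5 at 40 ppm (4.22%) and 4 at 120 ppm (4.73%). At 1, 5 and 10 ppm 0 of 10 were called in limma, and over all probe sets 0.00444%, 0.153% and 0% were, with 2534, 3189 and 2871 probe sets at an unadjusted p under 0.05.

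Between neighbouring concentrations, Serpinh1 was the 1 member called from 10 to 20 ppm, where 0.349% of probe sets were called. None of the 10 was called from 20 to 40 ppm (0.373% of probe sets, 6178 at an unadjusted p under 0.05 in limma) or from 40 to 120 ppm (0.0244%, 2513 at an unadjusted p under 0.05). A test of any difference among the 7 groups called the same 4 genes, against 20.4% of probe sets, with limma adjusted p = 2.61e-08 for Serpinh1, 6.05e-06 for Col4a1, 8.15e-05 for Sparc and 0.000185 for Col3a1. The slope on log2(ppm + 1) also called these 4, at -0.29 for Serpinh1, -0.22 for Col3a1, -0.15 for Col4a1 and -0.13 for Sparc (log2 units per unit, limma adjusted p = 3.48e-06, 8.55e-05, 2.03e-07 and 5.71e-06), beside 32% of probe sets called and 10.8% called lower. With arrays centred on their median, Col1a2, Col4a2 and Lum passed the slope test too, which made 7. Within groups, a slope on the serial number of the titles called 0 of the 10 genes in limma (2.6% of all probe sets, 5681 at an unadjusted p under 0.05), and Serpinh1 had 0.04 ± 0.03 (SE) log2 units per number (adjusted p = 0.609).

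The genes also varied together between mice that had the same exposure. Each value was taken as its deviation from the mean of its own group, so that concentration plays no part, and all 45 pairs of the 10 genes were correlated over the 35 mice. A total of 10 pairs passed, all with r above 0 (two-sided permutation test with 100000 resamples within groups, adjusted over 45 pairs). The strongest was Col3a1 with Sparc, at Pearson r = 0.91 and Spearman rho = 0.89 (permutation p = 1e-05 for each, the smallest the resamples can give, adjusted p = 0.00015), and r was 0.90 without the 2 mice farthest from the median. It was 0.92 within 0 to 10 ppm and 0.91 within 20 to 120 ppm. Serpinh1 correlated with Sparc at r = 0.83 (rho = 0.84, and r = 0.80 without 2 mice) and with Col3a1 at r = 0.79 (rho = 0.79, and r = 0.76 without 2 mice), both with permutation adjusted p = 0.00015 for r and rho. For these 3 pairs r was the same, to 2 decimals, with arrays centred on their median.

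Col4a1 and Col4a2 correlated at r = 0.70 (rho = 0.62, r = 0.67 without 2 mice, permutation adjusted p = 0.00124 for r and 0.00765 for rho). This r was 0.84 within 0 to 10 ppm and 0.31 within 20 to 120 ppm, a difference that was not tested. The other 6 pairs that passed by r lay between 0.47 and 0.65 and joined Sparc, Col3a1, Serpinh1, Col4a1, Col4a2 and Col6a1. By rho 6 pairs passed in all, which left out Col4a2 with Sparc, Serpinh1 with Col6a1 and with Col4a1, and Col3a1 with Col6a1. No pair with Dcn or Lum passed, and Col3a1 with Dcn was at r = 0.13.

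**Figure D4:**
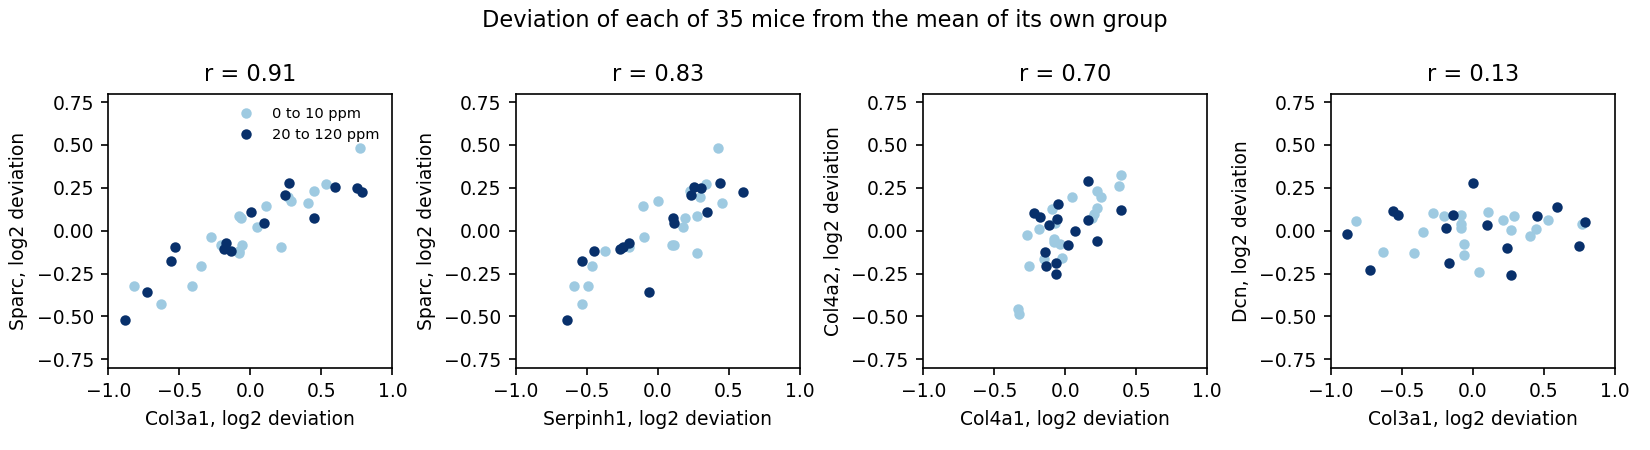
Deviation of each of the 35 mice from the mean of its own group, in log2 units on both axes, for 4 pairs of genes, with mice of 0 to 10 ppm in light and of 20 to 120 ppm in dark points. Col3a1 with Sparc (r = 0.91) and Serpinh1 with Sparc (r = 0.83) form narrow bands, Col4a1 with Col4a2 (r = 0.70) a broader one, and Col3a1 with Dcn (r = 0.13) none.

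Over 10502 genes read above the median probe set, those most like Serpinh1 by the same within-group r over 35 mice were Tuba1a, an alpha-tubulin, at 0.86, then Sparc, Col3a1, Stip1, a co-chaperone of the Hsp70 and Hsp90 proteins, at 0.77, and Tmsb10, an actin-binding thymosin, at 0.77. For Col3a1 they were Sparc, then Col14a1, a collagen that binds fibrils, at 0.79, Serpinh1, Tmsb10 at 0.76 and Tuba1a at 0.75. These genes are listed by rank of likeness only. At 120 ppm Tuba1a fell by 1.83 on the log2 scale (limma, adjusted p = 7.11e-06), Stip1 by 1.03 (adjusted p = 6.24e-06), Tmsb10 by 0.95 (adjusted p = 0.000568) and Col14a1 by 0.80 (adjusted p = 0.00387).

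Stellate cell markers were read from a list of 16 genes, of which 14 were measured and 2, Lhx2 and Timp1, lay under the median probe set. Their mean log2 value per mouse was 5.02 to 5.18 in air, 5.06 to 5.19 at 40 ppm and 4.90 to 5.12 at 120 ppm, ranges that overlap. At 20 and 40 ppm 0 of 14 were called in limma. At 120 ppm 3 of 14 were called, or 21.4% beside 19.4% of all probe sets. Colec11 and Ngfr were lower (-0.47, limma adjusted p = 0.0149, and -0.51, adjusted p = 0.0195), and Lhx2 was higher (0.33, adjusted p = 0.0448) but not with centred arrays (0.23, adjusted p = 0.167). Of other markers, named after their values were seen, Lrat, the retinol-storing enzyme of stellate cells, was at 0.43 (adjusted p = 0.274), Reln at -0.25 (adjusted p = 0.122, and 0.0381 with centred arrays), Des at -0.00 (adjusted p = 0.994) and Acta2 at -0.64 (adjusted p = 0.0974). Within groups, the mean of the list correlated with Sparc (r = 0.77, rho = 0.72, r = 0.73 without 2 mice), with Col3a1 (r = 0.73, rho = 0.65, r = 0.66 without 2 mice) and with Serpinh1 (r = 0.71, rho = 0.68, r = 0.72 without 2 mice). The permutation adjusted p of r over 90 tests were 0.00045, 0.0012 and 0.00045, and of rho 0.0009, 0.0081 and 0.0009, while Dcn with the list was at r = 0.37 (permutation adjusted p = 0.271). These 3 were the only ones that passed among the 90 tests of the 10 genes against 9 measures. Of the rest, Col3a1 with the mean of the chaperone list was at r = 0.49 (rho = 0.44, r = 0.31 without 2 mice, permutation adjusted p = 0.115 for r and 0.191 for rho).

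Kupffer cell markers, of the resident macrophages, numbered 12, and none lay under the median probe set. Their mean log2 value averaged 7.24 in air (6.92 to 7.88 per mouse), 7.14, 7.00 and 7.25 at 1, 5 and 10 ppm, 6.90 at 20 ppm, 6.96 at 40 ppm (6.72 to 7.13) and 6.82 at 120 ppm (6.53 to 7.15), and the ranges at 40 and 120 ppm overlap with air. None of the 12 was called at 20 ppm in limma, where 1.03% of all probe sets were. Their median log2 change there was -0.35, beside -0.16 for the 10 collagen-related genes, of which 2 were called. At 40 ppm 3 of 12 were lower (25% beside 14.6% of all probe sets called) and at 120 ppm 6 of 12 (50% beside 19.4%), among them Clec4f (-0.74, limma adjusted p = 0.000426), C1qa (-0.68, adjusted p = 0.00101) and C1qc (-0.54, adjusted p = 0.00855). Between mice of one group, the mean of these markers correlated with Sparc at r = 0.46 (rho = 0.44, r = 0.36 without 2 mice) and did not pass (permutation adjusted p = 0.133 for r and 0.191 for rho). Their part in the differences between groups was not tested. Of 16 endothelial markers 1, Stab2, was higher at 40 ppm (0.38, limma adjusted p = 0.0126), and 3 were lower at 120 ppm, such as Cdh5 (-0.36, adjusted p = 0.0137) and Flt1 (-0.35, adjusted p = 0.0298). These shares, 6.25% and 18.8%, lie under the 14.6% and 19.4% of all probe sets called in either direction. At 120 ppm 6.4% of all probe sets were called lower. With centred arrays 1 endothelial marker was higher and 3 were lower at 40 ppm, and 0 were higher and 4 lower at 120 ppm, or 25% at each. Of 15 portal fibroblast and mesothelial markers 11 lay under the median probe set, and at 120 ppm 4 were higher, among them Entpd2 (0.62, adjusted p = 0.00351), Gpm6a (0.39, adjusted p = 0.00985) and Eln (0.48, adjusted p = 0.018, and 0.0509 with centred arrays), and 1 was lower, in all 33.3% of the list. Gpm6a is dim, at a mean of 2.66, and with centred arrays 2 of the list were higher and 4 lower. None of 6 cholangiocyte markers passed in limma at 120 ppm, where Sox9 was at -0.17 (adjusted p = 0.501) and Epcam at 0.23 (adjusted p = 0.224). Of 12 hepatocyte markers 3 were higher at 120 ppm, among them Apob (0.78, adjusted p = 0.000365) and Cyp2e1 (0.21, adjusted p = 0.00628, and 0.141 with centred arrays), and 1, Cyp2f2, was lower (-0.29, adjusted p = 0.00138). With centred arrays 1 hepatocyte marker was higher and 3 were lower.

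The other collagen chains were mostly dim, with 20 of the 36 measured under the median probe set. At 40 ppm 3 were lower and 0 higher, and at 120 ppm 4 were lower and 1 higher, with a median change of -0.01 beside 0.06 over all probe sets. The shares called in either direction, 8.33% and 13.9%, lie under the 14.6% and 19.4% called over all probe sets. Nearly all of these calls were lower, and 4.89% and 6.4% of all probe sets were called lower. With centred arrays 6 chains were lower at 40 ppm and 8 at 120 ppm, with 0 higher, or 16.7% and 22.2% of the list. Centring also raised the lower calls over all probe sets, as given at the end. Col5a1, a type V chain that joins the fibrils of types I and III, fell by 0.55 on the log2 scale at 120 ppm (limma, adjusted p = 0.00192), and Col14a1 by 0.80. Col6a5, dim at a mean of 2.34, was lower at 40 ppm (-0.32, adjusted p = 0.0228) and not called at 120 ppm (-0.17, adjusted p = 0.198). The other lower chains at 120 ppm, named after their values were seen, were Col5a2 (-0.48, adjusted p = 0.0398) and Col6a2 (-0.47, adjusted p = 0.0345), and the 1 that was higher was Col2a1 (0.31, adjusted p = 0.032), which is dim at a mean of 2.98 and did not pass with centred arrays (0.22, adjusted p = 0.127).

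Enzymes and carriers of collagen maturation went both ways. Of 28 measured, 1 was lower at 20 ppm, 3 were higher and 6 lower at 40 ppm, and 5 were higher and 5 lower at 120 ppm, in all 3.57%, 32.1% and 35.7% of the list beside 1.03%, 14.6% and 19.4% of all probe sets. With centred arrays 3 were higher and 6 lower at 120 ppm, and 8 of the 28 are dim, under the median probe set. Loxl4, a lysyl oxidase that cross-links collagen, fell by 0.64 on the log2 scale at 20 ppm and by 0.77 at 120 ppm (limma, adjusted p = 0.0399 and 0.00131). Tmem38b, an ion channel of the endoplasmic reticulum needed for normal collagen processing, rose by 0.72 at 120 ppm (adjusted p = 0.000803), and Mia3, which loads collagen into transport vesicles, rose by 0.77 (adjusted p = 0.00147). Among the general chaperones of heat shock and of the endoplasmic reticulum, to which Serpinh1 is related by its heat shock control, the lower ones numbered 1 of 22 in the 20 ppm group, 10 in the 40 ppm group and 13 in the 120 ppm group, and 0 were higher in limma, in all 4.55%, 45.5% and 59.1% of the list. With centred arrays the lower ones numbered 1, 13 and 18, and none of the 22 is dim. Hspb1, a small heat shock protein, was lower in the 20 and the 120 ppm group, with changes of -1.52 and -2.10 (adjusted p = 0.00707 and 7.12e-06). Hyou1, a chaperone of the endoplasmic reticulum, was at 0.00 at 20 ppm (adjusted p = 1) and fell by 1.06 at 120 ppm (adjusted p = 0.000139), and Pdia6, a disulphide isomerase, fell by 0.85 at 40 ppm (adjusted p = 0.000164) and was at -0.36 at 120 ppm (adjusted p = 0.0665, and 0.0226 with centred arrays).

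Genes of matrix breakdown and its inhibitors had 3 of 20 higher and 6 lower at 120 ppm, and 2 higher and 4 lower at 40 ppm, in all 45% and 30% of the list beside 19.4% and 14.6% of all probe sets. Of these 20 genes 9 are dim, under the median probe set. Timp3, an inhibitor of matrix metalloproteinases, rose by 0.91 on the log2 scale at 120 ppm (limma, adjusted p = 6.79e-06), and Mmp14, a membrane-bound metalloproteinase, rose by 1.02 (adjusted p = 0.00395). Fap, a protease of activated fibroblasts that is dim here at a mean of 3.01, fell by 0.41 (adjusted p = 0.0133). Other matrix proteins had 5 of 30 higher and 2 lower at 120 ppm, and 5 higher and 0 lower at 40 ppm in limma, in all 23.3% and 16.7% of the list, and 12 of the 30 are dim. With centred arrays 2 were higher and 4 lower at 120 ppm, so the balance of directions in this list depends on the scaling. Fn1, fibronectin, which hepatocytes secrete in bulk, rose by 0.41 at 120 ppm (adjusted p = 3.7e-05), Tnc by 0.56 (adjusted p = 0.0012, dim at a mean of 3.04) and Omd by 0.79 (adjusted p = 0.0317, mean 3.59, and 0.0627 with centred arrays). The 2 lower ones, named after their values were seen, were Bgn (-0.36, adjusted p = 0.00654) and Prelp (-0.40, adjusted p = 0.0202).

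Of the 9 collagen receptors measured, 2 were lower at 120 ppm and 0 higher in limma, or 22.2% beside 19.4% of all probe sets. These were Gp6, the platelet receptor (-0.44, adjusted p = 0.00237), and Mrc2, which takes up collagen fragments (-0.29, adjusted p = 0.0486). Both are dim, at means of 3.45 and 3.04, and are among 4 dim ones of the 9. Of 20 genes of transforming growth factor beta and platelet-derived growth factor signalling, which drive collagen synthesis, 2 were higher and 3 lower at 120 ppm, and 3 higher and 5 lower at 40 ppm, in all 25% and 40% of the list beside 19.4% and 14.6% of all probe sets, and 6 of the 20 are dim. Ltbp4 and Ltbp2, which store latent transforming growth factor beta in the matrix, fell by 0.60 and 0.50 on the log2 scale at 120 ppm (limma, adjusted p = 0.000763 and 0.002, with Ltbp2 dim at a mean of 2.94), and Smad2, which carries the signal to the nucleus, rose by 0.72 (adjusted p = 0.00324).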

How the data were processed

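RNA from the livers of 35 mice was hybridised to Affymetrix 3' IVT arrays, per the labels' protocols. The deposited table holds 1 log2 value per probe set and array. RMA and Partek appear in the submitters' processing notes, which give no versions. No source used here gives the log base. It was read as 2 from the values' range, and every fold depends on this. Array number limits the precision, and whether a probe set was above background was not determined. The 104 control probe sets were left out, and 45037 were tested. The platform annotation names 1 gene for 28898 probe sets, several for 551 and none here for 15588. Gene symbols were checked through gene identifiers in a RefSeq table of GRCm38.p6, which changed 0.

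A mean per group was fitted to all 35 arrays with limma 3.58.1 in R 4.3.3 (28 residual and 5.41 prior degrees of freedom), with Benjamini-Hochberg adjustment over all probe sets tested. Calls were made at an adjusted p under 0.05. Within-group correlations, within-array differences between probe sets and array measures were computed in Python 3.11.15 with SciPy 1.17.1, by permutation tests. The fit was tested on simulated data. The members and lists were chosen with earlier results of these data known, among them the differences of Serpinh1 and Col3a1. All 10 members are named, with up to 3 passing genes of each list by smallest adjusted p (from a list with none, the 2 lowest p of the F test), and the 5 genes most like Serpinh1 and like Col3a1. Other genes are said to have been named after their values were seen. The within-array differences, and centring for the lists and second probe sets, were added after seeing the data.

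The replicate numbers of the labels were not used to pair the mice in the main fit. Deviations of same-numbered arrays correlated between -0.39 and 0.37. Alternatives were centring, a second quantile normalization, brighter probe sets only, array weights, an intensity-dependent prior, only the groups compared, the mean of all probe sets of a gene, the replicate block, the rank of the concentration and leaving out each mouse.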

Additional observations from a re-analysis of the deposited data

Results flagged for a closer look

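Of 70 sets of 5 mice, 1 for each gene and group, 3 held a mouse that stood apart from the other 4 by Dixon's criterion, which chance alone gives in about 1 of 20 sets. For Col6a1, replicate 2 of air had a log2 value of 5.80, and the others had 5.02 to 5.23. For Dcn, replicate 4 of 1 ppm had 9.25, with the others at 9.53 to 9.57, and replicate 3 of 40 ppm had 9.49, with the others at 9.70 to 9.77. Neither gene was called in limma at any concentration.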

How the results depend on the processing

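The 4 members called at 40 and at 120 ppm numbered 4 to 6 and 4 to 5 under the alternatives tried, and 4 without any single mouse. Of 558 alternative values of 29 called results, 541 kept direction and call, 17 in 7 results kept direction only, and 0 turned sign. With only the groups compared in the fit, the members called at 20 ppm against air went from 2 to 0 and at 20 against 10 ppm from 1 to 0, and leaving out a mouse gave 0 to 3 and 0 to 1. The slope called 7 members with arrays centred on their median, against 4, and rho passed 6 pairs, against 10 by r. Centring turned the calls over all probe sets from 4384 higher and 2202 lower to 2712 and 3863 at 40 ppm, and from 5846 and 2881 to 2943 and 5560 at 120 ppm.

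With the replicate block, 2 members were called at 20 ppm, 4 at 40 ppm and 4 at 120 ppm, as without it, and no call of a member changed. Over all probe sets it called 536 at 20 ppm against 466, 6687 at 40 ppm against 6586, and 8746 at 120 ppm against 8727. Of the 35 arrays, 8 had their best correlate in another group under their own number, and the count expected by chance was not computed. Same-numbered arrays had a median r from -0.03 to 0.03 for replicates 1 to 4. For replicate 5 it was 0.11, with 13 of 21 pairs above 0.1. Whether the number stands for anything shared was not tested.

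Turned signs were limited to 10 results that were not called. With arrays centred on their median, Col1a2 at 20 ppm was at -0.02, Col6a1 at 40 ppm at -0.00 and Dcn at 120 ppm at -0.08. After a second quantile normalization Col1a2 at 20 ppm was at -0.01 and Col6a1 at 40 ppm at -0.11. With array weights Lum at 20 ppm was at 0.01, and the slopes of Col1a1 and Col6a1 were at 0.000 and 0.001. The cause was not tested. Leaving out single mice gave -0.09 to 0.04 for Col1a1, -0.03 to 0.06 for Col1a2, -0.13 to 0.06 for Col6a1 and -0.11 to 0.12 for Lum at 20 ppm, and -0.02 to 0.07 for Dcn at 120 ppm. From 40 to 120 ppm it gave -0.18 to 0.03 for Serpinh1 and -0.15 to 0.00 for Sparc, and for the slopes -0.007 to 0.005 for Col1a1 and -0.015 to 0.007 for Col6a1.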
